A study of Caenorhabditis elegans with 8 samples.

Results

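The lys genes of Caenorhabditis elegans encode lysozymes, enzymes that cut the peptidoglycan of bacterial cell walls. The 9 genes described here are lys-1 to lys-8 and lys-10, taken by their names from a deposited table of 46904 genes. All 9 had counts, and 8 of them passed the low-count filter of the gene test. A further gene, lys-9, was not among the members and held 1 count over all libraries. Worms feed on bacteria, and lysozymes serve both digestion of that food and defence against pathogens. The lys genes are of the protist type and are known mainly from the intestine, where several are switched on by infection. The worm has a separate family of invertebrate-type lysozymes, the ilys genes, and 6 of these stood in the table for comparison.

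RNA came from pools of whole worms of the strain CL2006, which expresses human amyloid beta, and which the labels give the genotype WT. Worms grew at 20 °C on HT115 (DE3) bacteria that carried either an empty RNAi vector (4 libraries) or a construct against cpr-6, a cathepsin B-like protease gene (4 libraries). They were kept on the same bacteria for 2 generations, with progeny removed by daily transfer, and were collected at day 6 of adulthood. In this strain the transgene is known to be driven by a muscle promoter and carried with a rol-6 marker, so both groups share the peptide and the marker. The series text speaks of 4 biological repeats, and no label says more about their origin, so that p-values reflect how much these libraries varied.

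Libraries held 8184412 to 12506320 counts of CEL-Seq2, a method that reads the 3′ ends of polyadenylated transcripts, and 1 count was worth 0.0800 to 0.122 CPM (counts scaled to a common depth). The targeted gene was checked first. cpr-6 stood at 749, 731, 773 and 780 CPM in empty vector replicates 1 to 4 and at 79.5, 80.2, 65.6 and 101 CPM in cpr-6 RNAi replicates 1 to 4 (log2 fold change -3.22 ± 0.114 SE, edgeR adjusted p = 2.00e-10; exact two-sided permutation p = 0.0286, the smallest that 4 against 4 allows). One library stood apart. In cpr-6 RNAi replicate 4, mitochondrial genes took 2.144% of counts against 0.805% to 1.156% elsewhere, and 8 germline and embryo markers summed to 9345 CPM against 12586 to 14133 CPM. Sums of 10 intestine markers (1032 against 859 to 937 CPM), 10 pharynx markers (279 against 152 to 203 CPM) and 6 epidermis markers (1110 against 618 to 894 CPM) were highest in that library, and none of these markers was at 0 counts in all libraries. Control libraries were not uniform either. Body wall muscle sums were 2931 and 3211 CPM in empty vector replicates 1 and 2, and 5134 and 4842 CPM in replicates 3 and 4. Epidermis sums were 618 and 624 CPM, and 834 and 894 CPM, in the same order. The 6 epidermis markers include rol-6, which also marks the transgene. It averaged 561 ± 91.0 CPM over the control libraries and 637 ± 34.3 CPM over those of cpr-6 RNAi (SD, n = 4). rol-6 thus made up much of the epidermis sums, and the share that the transgene supplied was not tested. In whole worms, fewer cells of a type and less RNA per cell cannot be told apart. The part of these differences in the values of the lys genes was not tested. For each lys gene the value without cpr-6 RNAi replicate 4 is given beside its result. For genes of the other families and pathways it is not given.

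The members fell into 2 chromosomal groups and 3 single genes (WBcel235, positions as deposited). lys-1 (WBGene00003090, 10277827 to 10279127, plus strand), lys-2 (WBGene00003091, 10280310 to 10281474, minus strand) and lys-3 (WBGene00003092, 10282204 to 10283544, minus strand) lay within 5718 bases of chromosome V. lys-4 (WBGene00003093, 11621443 to 11623174), lys-5 (WBGene00003094, 11624255 to 11625582) and lys-6 (WBGene00003095, 11626910 to 11627947) lay within 6505 bases of chromosome IV, all on the minus strand. Gaps between these neighbours measured 729 to 1327 bases and held no other annotated gene. lys-7 (WBGene00003096) lay elsewhere on chromosome V at 3481421 to 3482600, lys-10 (WBGene00003099) elsewhere on chromosome IV at 8332826 to 8333559, and lys-8 (WBGene00003097) on chromosome II at 5586165 to 5587651. In Ensembl release 115 the members have 1 to 3 exons, and their proteins have 279 to 301 residues for lys-1, lys-2, lys-3, lys-7 and lys-8 and 214 to 230 for lys-4, lys-5, lys-6 and lys-10. How reads that match several of these related genes were counted is not given in the sources used here. The last 38 bases of lys-8 overlap C17G10.13 on the other strand, which held 622 counts in all against 41245 for lys-8, and the last 3 bases of lys-10 overlap his-31, which held 59 against 55 for lys-10.

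Levels of the members spread over 3 tiers. In the upper tier were lys-1, lys-8, lys-7 and lys-2, which together took 97.1% to 98.6% of the lys counts of each library. lys-1 alone took 41.1% to 50.7%, and ranked 149 by mean CPM among all genes. lys-4 stood alone in the middle. The lower tier held lys-6, lys-5, lys-3 and lys-10, each under 5 CPM on average. Divided by coding length, mean levels over the 8 libraries were 1145 CPM per kilobase for lys-1, 586 for lys-8, 456 for lys-7, 407 for lys-2 and 66.0 for lys-4. The same measure gave 3.97 CPM per kilobase for lys-6, 2.02 for lys-5, 1.85 for lys-3 and 0.956 for lys-10. Of the 8 pairs of neighbours in this order, 5 differed (exact two-sided sign-flip permutation test over 8 libraries, p = 0.00781 for each, the smallest that 8 libraries allow, and adjusted p = 0.0125). lys-7 and lys-2 did not pass (higher in 6 of 8 libraries, adjusted p = 0.384 in the exact test), nor did lys-6 and lys-5 (6 of 8, 0.0625) or lys-5 and lys-3 (3 of 8, 0.914). Tag counts from 3′ ends need not scale with length, and without the division lys-3 moved above lys-5. Neighbours on a chromosome could differ widely in level. lys-1 and lys-3, with coding sequences of 894 and 903 bases, share a group, and lys-1 gave 476 to 752 counts for each count of lys-3.

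**Figure D1:**
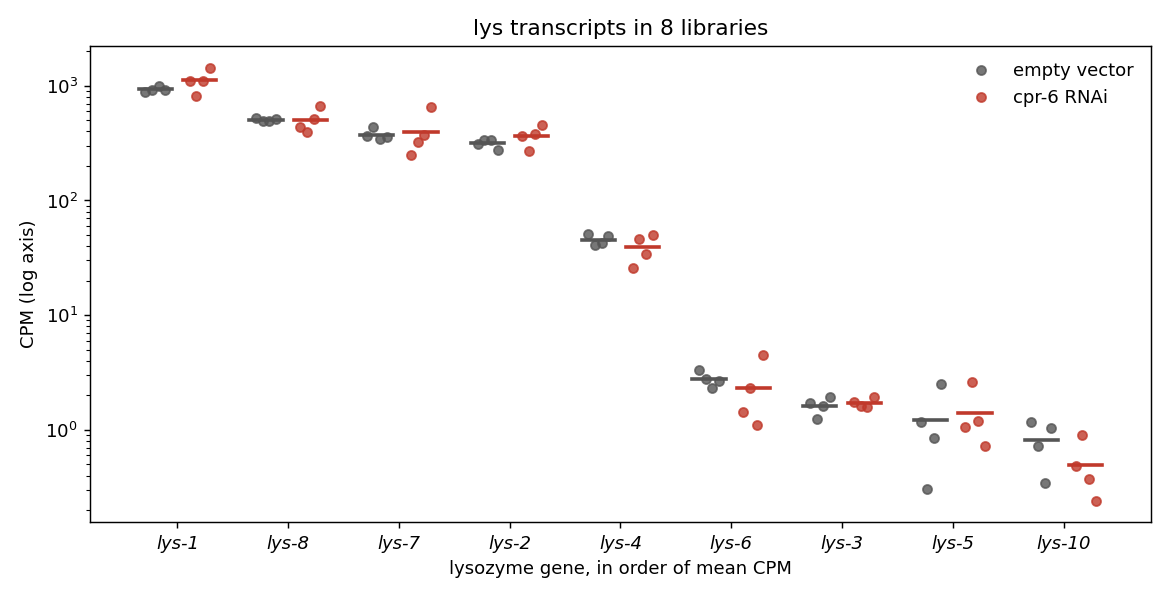
CPM of each lys gene on a log axis, with 1 point for each library and a bar for the mean of 4 libraries, empty vector in grey and cpr-6 RNAi in red. The upper tier runs from lys-1 to lys-2, lys-4 stands at about 42.4 CPM, and the groups overlap for every gene.

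No lys gene passed the test between cpr-6 RNAi and empty vector worms. edgeR called 0 of the 8 tested members, and DESeq2 and limma voom also called 0. DESeq2 gave no adjusted p for lys-3 and lys-5, so it could not call them. Over all genes, edgeR called 0.00915% of 10932, which is cpr-6 alone. At unadjusted p under 0.05 this edgeR fit found 0 of 8 members, against 3.85% of all tested genes. Some other settings found members, which the last section gives beside the counts over all genes. The groups did not overlap for 0 of 8 members, against 2.52% of all tested genes. Of the 8 log2 fold changes 5 lay above 0 and 3 below, with a median of 0.08 against 0.00058 over all tested genes. edgeR's adjusted p was 0.997 for each of the 8 members. In the authors' deposited table, all 9 members have an adjusted p of 0.9998, and the smallest unadjusted p is 0.0571, for lys-1.

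lys-1, which is annotated in the deposited table to defence against Gram-negative and Gram-positive bacteria and to vesicles at the apical side of cells, had the largest level. Its CPM was 874, 926, 999.7 and 919 in empty vector replicates 1 to 4 and 1111, 810, 1107 and 1441 in cpr-6 RNAi replicates 1 to 4. Replicates 1, 3 and 4 of cpr-6 RNAi lay above every empty vector library, and replicate 2 lay below them all. The log2 fold change was 0.26 ± 0.136 (SE; unadjusted p = 0.0757, edgeR adjusted p = 0.997), with a limma voom 95% interval of -0.04 to 0.51. It was 0.12 without cpr-6 RNAi replicate 4 (edgeR adjusted p = 0.977) and 0.39 without cpr-6 RNAi replicate 2 (unadjusted p = 0.00151, edgeR adjusted p = 0.946). In mean levels over replicates 3 and 4 the log2 difference was 0.40, and over replicates 1 and 2 it was 0.08. Empty vector replicates 1 and 2 also differed from 3 and 4 in muscle and epidermis sums, the latter made up largely of rol-6. A link was not tested.

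lys-2, the neighbour of lys-1 with annotated lysozyme activity, shared its lowest and its highest library with lys-1. It stood at 308, 340, 334 and 276 CPM in empty vector and at 366, 269, 381 and 454 CPM in cpr-6 RNAi replicates 1 to 4. cpr-6 RNAi replicate 2 was the lowest and replicate 4 the highest of the 8 libraries for both genes, so that the cpr-6 RNAi values enclosed the control values. Its log2 fold change was 0.22 ± 0.131 (SE; edgeR adjusted p = 0.997; voom interval -0.08 to 0.48), and 0.10 without cpr-6 RNAi replicate 4.

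lys-7 is known as a gene switched on by the FOXO factor DAF-16 and as a defence gene against bacteria and fungi. It stood at 361, 437, 346 and 355 CPM in empty vector and at 247, 324, 372 and 654 CPM in cpr-6 RNAi replicates 1 to 4. The cpr-6 RNAi libraries again enclosed the control libraries, with replicate 1 lowest and replicate 4 at 2.08 times the mean of replicates 1 to 3. edgeR put the log2 fold change at 0.09 ± 0.288 (SE; edgeR adjusted p = 0.997; voom interval -0.45 to 0.44). Without cpr-6 RNAi replicate 4 it was -0.26 (edgeR adjusted p = 0.952). The log2 difference was -0.49 over replicates 1 and 2 and 0.49 over replicates 3 and 4.

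lys-8, which the deposited table ties to innate immunity and to the shape of the pharyngeal gland, was the steadiest of the 9 in control worms. Its values were 524, 496, 492 and 508 CPM in empty vector and 436, 397, 509 and 661 CPM in cpr-6 RNAi replicates 1 to 4. Replicates 1 and 2 of cpr-6 RNAi lay below every control library, replicate 3 among them and replicate 4 above. The log2 fold change was -0.01 ± 0.128 (SE; edgeR adjusted p = 0.997; voom interval -0.31 to 0.22), and -0.18 without cpr-6 RNAi replicate 4 (unadjusted p = 0.0272, edgeR adjusted p = 0.941).

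**Figure D2:**
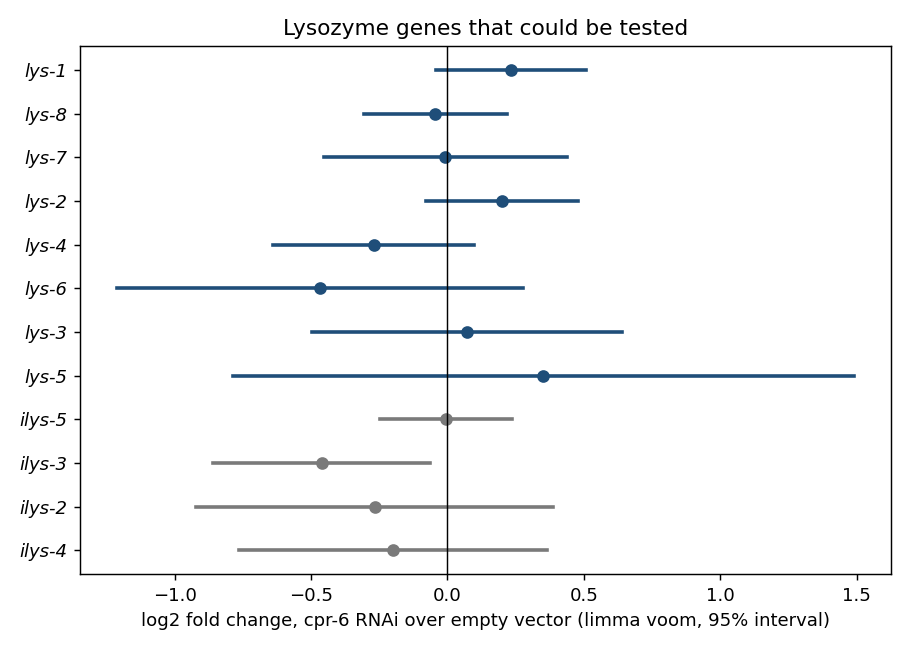
Log2 fold change of cpr-6 RNAi over empty vector (limma voom, point and 95% interval, 8 libraries) for the 8 lys genes tested, in blue, and 4 ilys genes, in grey. The interval of each lys gene includes 0, and that of ilys-3 runs from -0.86 to -0.06.

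lys-4, annotated to lysozyme activity and defence against Gram-positive bacteria, was the only gene of its chromosomal group above 5 CPM on average. It stood at 50.6, 40.8, 42.3 and 48.6 CPM in empty vector and at 26, 46.6, 34 and 50.3 CPM in cpr-6 RNAi replicates 1 to 4. Replicates 1 and 3 of cpr-6 RNAi lay below every control library, and replicates 2 and 4 lay among them. On the log2 scale the fold change was -0.22 ± 0.175 (SE; edgeR adjusted p = 0.997; voom interval -0.64 to 0.10), -0.07 without cpr-6 RNAi replicate 1 and -0.36 without cpr-6 RNAi replicate 4.

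The lower tier held few counts. lys-6, annotated to lysozyme activity, had 31, 27, 27 and 33 counts in empty vector and 15, 23, 12 and 37 counts in cpr-6 RNAi libraries. Its cpr-6 RNAi values of 1.11 to 4.47 CPM enclosed the control values of 2.31 to 3.30 CPM. edgeR gave a log2 fold change of -0.27 ± 0.363 (SE; edgeR adjusted p = 0.997), and -0.77 without cpr-6 RNAi replicate 4 (unadjusted p = 0.0228, edgeR adjusted p = 0.941). lys-3, annotated to copper stress and innate immunity, had 12 to 24 counts in empty vector and 16 to 18 under cpr-6 RNAi, and a log2 fold change of 0.06 ± 0.280 (SE; voom interval -0.50 to 0.64), or 0.00023 without cpr-6 RNAi replicate 4. Its coefficient of variation over the 8 libraries, 13.4%, was below the 24.1% that counting noise alone gives at its mean count. lys-5, annotated to lysozyme activity and cytolysis, had 11, 3, 10 and 31 counts in empty vector and 11, 26, 13 and 6 in cpr-6 RNAi libraries. Its log2 fold change of 0.18 ± 0.522 (SE; voom interval -0.78 to 1.49) became 0.84 once empty vector replicate 4 was left out and -0.29 once cpr-6 RNAi replicate 2 was, and was 0.37 without cpr-6 RNAi replicate 4. lys-10 had 11, 7, 4 and 13 counts in empty vector and 5, 9, 4 and 2 counts in cpr-6 RNAi libraries, too few for the filter. Its mean level was 0.820 ± 0.371 CPM in control worms and 0.499 ± 0.285 CPM under cpr-6 RNAi (SD, n = 4), or 0.584 ± 0.280 CPM without cpr-6 RNAi replicate 4 (SD, n = 3), and edgeR with no filter gave a log2 fold change of -0.69 ± 0.526 (SE, adjusted p = 0.841). The voom interval of lys-6 (-1.21 to 0.28) includes a 2-fold fall, and that of lys-5 a 2-fold rise.

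In the upper tier, libraries of cpr-6 RNAi worms spread more widely than those of control worms. In empty vector libraries the coefficient of variation of CPM was 5.60% for lys-1, 9.21% for lys-2, 11.1% for lys-7 and 2.91% for lys-8. In cpr-6 RNAi libraries it was 23.1%, 20.7%, 44.4% and 23.3% in the same order. Counting noise alone would give 0.977% to 1.69% for these genes. A larger coefficient in cpr-6 RNAi than in empty vector libraries was found for 6 of the 8 tested members and for 64.8% of all tested genes, so the count itself is near the background. Among the 1869 genes of 100 CPM or more, the median coefficient was 6.03% in empty vector and 10.3% in cpr-6 RNAi libraries.

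Part of this spread came with cpr-6 RNAi replicate 4, and part did not. That library was the highest of the 8 for 6 of the 8 tested members, against 29.9% of all tested genes. The 9 members summed to 3267 CPM there, against 1853 to 2407 CPM in the other libraries. Over cpr-6 RNAi replicates 1 to 3 alone, the coefficient of variation was still 17.1% for lys-1, 17.9% for lys-2, 19.95% for lys-7 and 12.7% for lys-8, while the median of the genes of 100 CPM or more was 4.82%. Only 2.30%, 1.93%, 1.5% and 5.89% of these genes, in the same order, varied as much or more over these 3 libraries. In empty vector libraries 55.3%, 19%, 12.1% and 89.7% did. Such spread was not limited to the lys genes. For ilys-5, an invertebrate-type lysozyme gene, the share was 2.35% over cpr-6 RNAi replicates 1 to 3 and 41.7% in empty vector libraries. Of cpr-6 RNAi replicates 1 to 3, replicate 2 was the lowest for lys-1, lys-2, lys-8 and ilys-5, so their shares are not independent. These shares describe the libraries at hand, and the difference in spread between the groups was not tested.

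**Figure D3:**
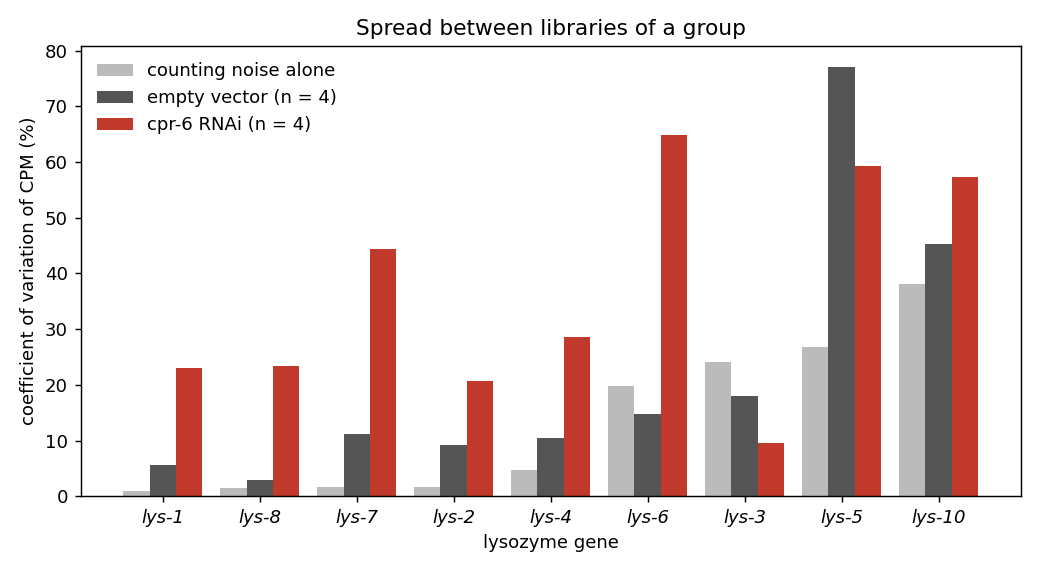
Coefficient of variation of CPM in percent for each lys gene, over 4 empty vector libraries in dark grey and over 4 cpr-6 RNAi libraries in red, with the value that counting noise alone gives at the mean count in light grey. For lys-1, lys-2, lys-7, lys-8, lys-4, lys-6 and lys-10 the red bar is the highest. For lys-5 the dark grey bar is the highest, and for lys-3 the light grey bar of counting noise is.

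The upper tier did not vary as 1 unit. lys-1 and lys-2 kept the closest ratio, with 2.72 to 3.33 counts of lys-1 for each count of lys-2 in all 8 libraries. Centred on their own means, the log2 CPM profiles of lys-1 and lys-2 lay 0.08 apart (root mean square over 8 libraries), and among 10931 other tested genes only T24B8.5 (0.07) and Y119D3B.21 (0.07) lay closer to lys-1. T24B8.5 is widely used as a reporter of the PMK-1 p38 immune pathway. By contrast the ratio of lys-8 to lys-7 ran from 1.01 to 1.76. lys-1 and lys-2 were high in cpr-6 RNAi replicate 1 (0.14 and 0.12 above their means on the log2 scale), where lys-7, lys-4 and lys-8 were low (-0.59, -0.67 and -0.19). In cpr-6 RNAi replicate 2, lys-1, lys-2 and lys-8 all stood 0.32 to 0.33 below their means, and lys-4 stood 0.17 above. The genes closest to lys-8 in profile were shn-1 (0.05), F32A5.4 (0.06) and the insulin-like peptide gene ins-22 (0.07), and those closest to lys-7 were ttr-29 (0.08), C28C12.4 (0.09) and F14H12.3 (0.11). Most of these genes were far scarcer than lys-8 (503 CPM) and lys-7 (387 CPM). Mean levels were 8.36, 52.4 and 2.79 CPM for those close to lys-8, and 6.50, 31.8 and 18.9 CPM for those close to lys-7. Counting noise weighs on profiles at such levels, and the closest genes were picked from all tested genes, so a shared pattern was not shown. All these distances share libraries and depth, and rest on 8 points.

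**Figure D4:**
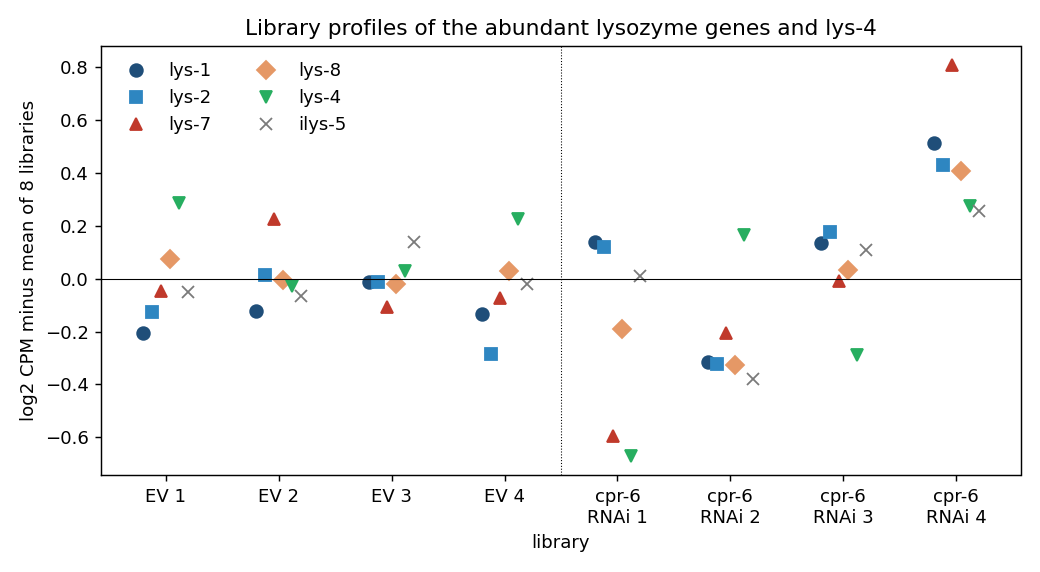
Log2 CPM of 6 lysozyme genes in each library, centred on the mean of the gene over 8 libraries, with empty vector libraries left and cpr-6 RNAi libraries right of the dotted line. All 6 are above 0 in cpr-6 RNAi replicate 4, and in replicate 1 lys-7 and lys-4 lie at -0.59 and -0.67 while lys-1 and lys-2 lie above 0.

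Ratios within a library do not depend on how libraries are scaled. Of the 10 ratios among the 5 lysozyme genes above 100 CPM (lys-1, lys-2, lys-7, lys-8 and ilys-5), 2 did not overlap between the groups, against 2.68% of all pairs of genes above that level. The 10 ratios share genes, and this comparison was added after the values were seen. lys-1 to ilys-5 was 1.98, 2.12, 1.99 and 2.04 in empty vector and 2.42, 2.31, 2.25 and 2.64 in cpr-6 RNAi replicates 1 to 4. lys-1 to lys-8 was 1.67, 1.87, 2.03 and 1.81 in empty vector and 2.55, 2.04, 2.18 and 2.18 in cpr-6 RNAi, where the nearest values almost touched. In neither ratio was the lowest cpr-6 RNAi value that of replicate 4.

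The invertebrate-type lysozymes were mostly scarce. ilys-5, the exception, averaged 457 ± 30.2 CPM in control worms and 462 ± 82.04 CPM under cpr-6 RNAi (SD, n = 4), and its log2 fold change was 0.01 ± 0.112 (SE, edgeR adjusted p = 0.997). Per kilobase of coding sequence its mean of 1101 CPM stood beside 1145 for lys-1, a difference that was not tested. Without that division the means over the 8 libraries were 459 CPM for ilys-5 and 1023 CPM for lys-1. Tag counts from 3′ ends need not scale with length, so the nearness per kilobase may not hold for transcripts. ilys-3, known for the breakdown of ingested bacteria in the pharynx and gut, stood at 5.43, 4.62, 5.06 and 5.32 CPM in empty vector and at 3.47, 3.70, 3.34 and 4.47 CPM in cpr-6 RNAi replicates 1 to 4. All 4 control values lay above all cpr-6 RNAi values. The log2 fold change of -0.45 ± 0.196 (SE, unadjusted p = 0.0351) did not pass after adjustment over all genes (edgeR adjusted p = 0.997). ilys-2 and ilys-4 had log2 fold changes of -0.22 and -0.24 at about 3 CPM, and the whole body of ilys-4 lies within atic-1 on the other strand. ilys-6 held 2 counts and ilys-1 held 0 in all libraries, which allows up to 3 counts.

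Pathways known to control antimicrobial genes, lysozymes among them, gave 0 calls too. Of the p38 pathway (tir-1, nsy-1, sek-1, pmk-1, vhp-1 and atf-7), 0 of 6 passed and 6 of 6 log2 fold changes lay below 0, with a median of -0.10, where 49.8% of all tested genes lay below 0. tir-1, the adaptor at the head of the pathway, stood at 147 ± 29.7 and 121 ± 24 CPM (SD, n = 4; log2 fold change -0.28), and vhp-1, a phosphatase of the pathway, had a log2 fold change of -0.14. These genes differ in their roles, so a shared sign of their transcripts does not give a direction of pathway activity, which was not measured. Of 8 genes of the DBL-1 pathway, the TGF-beta route to several antimicrobial genes, 0 passed, with dbl-1 at -0.49 and sma-4 at 0.16. Of 9 transcription factors of the gut and of stress responses 0 passed, with the intestinal GATA factor elt-2 at 0.28 and pqm-1 at -0.15. edgeR's unadjusted p was under 0.05 for 0 genes of these 3 lists, against 3.85% of all tested genes.

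Other antimicrobial families gave 0 calls as well. Of 24 tested antimicrobial peptide genes 18 lay above 0, with a median log2 fold change of 0.15, where 50.2% of all tested genes lay above 0 and their median was 0.00058. cnc-7 and cnc-3 stood at 0.26 and 0.24. Of 15 tested saposin genes 0 passed and 4 had an unadjusted p under 0.05, all higher, where 2.39% of all tested genes were higher at that p (3.85% in either direction). They were led by spp-17 (0.58, edgeR adjusted p = 0.816) and spp-9 (1.02, 0.997). The saposins summed to 1830 CPM in cpr-6 RNAi replicate 4 and to 1199 to 1336 CPM in the other libraries, and the peptides to 938 against 564 to 730 CPM. Of 6 thaumatin genes, 2 could be tested and 0 passed, with thn-1 at -0.19 and thn-2 at -0.09. Their sum was likewise highest in cpr-6 RNAi replicate 4 (1398 against 757 to 1119 CPM). Among the marker lists 0 genes passed. Body wall muscle sums were 2931 and 3211 CPM in empty vector replicates 1 and 2, and 5134 and 4842 CPM in replicates 3 and 4. They ran from 4457 to 5711 CPM in cpr-6 RNAi libraries. Neuron sums ran from 957 to 1118 CPM in empty vector and from 1026 to 1100 CPM in cpr-6 RNAi libraries.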

How the data were processed

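The submitters' processing notes name the build WBcel235 and, without roles, DESeq2 1.30.1, HTSeq 0.12.4, TopHat2 2.1.1 and cutadapt 2.10. The use of strand and of molecular identifiers is not given in the sources used here. The authors deposited raw counts per gene, which were the values analysed, with fold changes and p-values of their own comparison (13217 genes). Their 8 columns of normalized counts were not used. No row lacked a gene name. Positions were taken from the deposited table, and exons from Ensembl release 115 (46817 of 46904 gene IDs found).

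Counts were fitted in R 4.3.3 with edgeR 4.0.16 by its robust quasi-likelihood test of treatment, after TMM scaling and its default low-count filter (minimum count 10), over 10932 genes with Benjamini-Hochberg adjustment and a threshold of 0.05. CPM are TMM-scaled, and log2 CPM have a prior count of 2. This edgeR test returns no standard error. The SE given with its log2 fold changes was calculated back, as the absolute fold change over the square root of the F statistic. Voom intervals centre on voom's own fold changes, which can differ from those of edgeR. Intervals at 95% came from limma 3.58.1 voom, and DESeq2 1.42.0 was an alternative, with other scalings, other filters, a replicate block, a term for replicates 1 and 2 against 3 and 4, and each library left out. Neighbouring levels were compared on log2(CPM per kilobase of coding sequence + 1). Tested on simulated data (10774 genes), the test recovered 35.8% of 67 genes given a 1.5-fold change and 83.6% of 67 given a 2-fold change, besides 13 false calls. A further 66 genes were given a 4-fold change. So many changed genes ease the adjusted threshold. The simulation also gave both groups of a gene the same spread and held no library that stood apart. These shares may therefore not hold for genes of the upper tier.

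The members and lists were chosen with earlier results of these data known. Named genes are all lys and ilys genes, cpr-6 and the 3 tested genes closest in profile to each of the 3 most abundant lys genes. In the pathway, transcription factor and antimicrobial lists, values are given for the 2 genes with the smallest p. For the marker lists sums are given, and a value of its own only for rol-6.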

Additional observations from a re-analysis of the deposited data

Results flagged for a closer look

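lys-7 in empty vector replicate 2, at 437 CPM, lay farther from the other 3 control libraries (346 to 361 CPM) than Dixon's critical value of 0.829 for 4 samples allows. ilys-6 stood out in the same way in empty vector replicate 4 (0.0806 CPM) and in cpr-6 RNAi replicate 1 (0.0963 CPM), each of which is a single count among libraries at 0. Chance marks about 1 in 20 groups in this way where values are continuous and normally distributed. A group with a single count among libraries at 0 is always marked, so that rate does not apply to ilys-6.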

How the results depend on the processing

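In the chosen fit and its 16 alternatives, 0 lys genes passed the test, and the smallest adjusted p of a lys gene over these 17 fits was 0.798 (lys-1, edgeR with no low-count filter). Unadjusted p was less stable. With no filter edgeR gave 0.00978 for lys-1, 0.0438 for lys-2 and 0.0453 for lys-4, where 860 of 20023 genes were under 0.05. The term for replicates 1 and 2 against 3 and 4 gave lys-1 0.0460 in edgeR, where 547 of 10932 genes were. Without cpr-6 RNAi replicate 2 lys-1 and lys-2 were under 0.05, where 515 of 11214 genes were. Without cpr-6 RNAi replicate 4 lys-6 and lys-8 were, where 576 of 11098 genes were. The number of genes called over the whole table was 1 with edgeR, 28 with no low-count filter, 5 with DESeq2 and 1 to 3 with a library left out. cpr-6 was called in every fit (-3.34 to -3.13 with a library left out). With the replicate number as a block 2 genes were called, and 0 lys genes. Same-numbered libraries correlated at -0.0310, 0.121, 0.0187 and 0.249 in their deviations from the group means, so the numbers were not taken to pair the samples. Not every fit could call every member. The strict low-count filter left lys-3, lys-5 and lys-6 untested, and DESeq2 gave no adjusted p for lys-3 and lys-5. lys-1, lys-2, lys-4 and lys-6 kept their direction in every fit that tested them. lys-7 turned to -0.0070 with limma voom and to -0.0013 with the replicate block, and lys-8 to 0.013 with upper quartile scaling and to 0.0048 with the strict low-count filter. The cause was not tested. With a library left out, log2 fold changes ran from -0.26 to 0.26 for lys-7, -0.18 to 0.082 for lys-8, -0.045 to 0.16 for lys-3, -0.29 to 0.84 for lys-5, 0.12 to 0.39 for lys-1, 0.10 to 0.34 for lys-2, -0.36 to -0.07 for lys-4 and -0.77 to -0.03 for lys-6. Of 8 neighbouring pairs in the order of levels, 5 differed, 4 without division by length, 5 with a pseudocount of 0.5, and 4 to 5 with a library left out. In the lower tier, libraries held 2 to 37 counts of a gene. The coefficient of variation over the 8 libraries was 63.03% for lys-5 and 41.25% for lys-6, where counting noise alone gives 26.85% and 19.75%.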
